A study of Homo sapiens with 12 samples.

Results

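The comparison described here is the difference of drug effect between 2 lung adenocarcinoma lines, that is, the change with treatment in HCC827-Del-TM minus the change with treatment in HCC827-Del, gene by gene. All 12 bead arrays of the series entered it, 3 biological replicates in each of 4 groups. HCC827 is an established human line that depends on a mutant, constitutively active epidermal growth factor receptor. By their labels the lines share an EGFR deletion, alone in HCC827-Del and joined by a further EGFR substitution in HCC827-Del-TM. Each line received DMSO (control) or decitabine at 2.5 µM combined with vorinostat at 1 µM, and the exposure lasted 72 h. Each genotype was represented by 1 line, so the substitution and any other difference between the lines cannot be told apart, and with no single-drug group the effects of decitabine and vorinostat cannot be told apart either.

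Decitabine is a cytidine analogue that enters DNA during replication and traps DNA methyltransferases there, so that methylation is lost as cells divide. Vorinostat blocks the zinc-dependent histone deacetylases, which raises histone acetylation and acts on transcription of many genes, including the cell cycle inhibitor gene CDKN1A. In tumour lines the combination is known for reactivating germline genes that are silenced by promoter methylation, and for slowing proliferation. The question here is which transcripts answered the same treatment differently in both lines.

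Per array, 16251 to 19671 of 47323 probes were detected, with the most in treated HCC827-Del (18617 to 19671). The correlation of normalized log2 intensities was 0.995 to 0.996 within a group, and arrays of different groups reached 0.931 to 0.972. The 10 epithelial markers of the line were detected on all arrays, except that the surfactant gene SFTPB was not detected in either treated group. Of 16 markers of blood, endothelial, fibroblast, neuronal and liver cells, 4 were detected on at least 1 array in control HCC827-Del, 8 in treated HCC827-Del and 5 in each group of HCC827-Del-TM. Their summed signal ran from 767 to 784, from 1210 to 1280, from 947 to 961 and from 1300 to 1330 in the 4 groups, in the order control and treated HCC827-Del, control and treated HCC827-Del-TM. CD14, COL1A1 and SYT1, markers of monocytes, fibroblasts and neurons, were detected on all arrays, and the liver marker ALB on all but 1. CD3D of T cells was detected on all arrays of both treated groups and on 1 control array of HCC827-Del-TM. The endothelial markers PECAM1 and VWF were detected on all 3 arrays of treated HCC827-Del and on no other. COL1A2 was detected on 1 array of treated HCC827-Del. The other 8, PTPRC, HBB, CDH5, PDGFRB, DCN, RBFOX3, SNAP25 and APOA1, were detected on no array. The arrays measured RNA of whole cultures, so fewer cells of a kind and less RNA per cell cannot be told apart.

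Of 11808 genes tested, 5024 passed limma's test for the difference of drug effects at an adjusted p under 0.05, which is 42.5%. The drugs' effect was higher in HCC827-Del-TM for 2392 of them (20.3% of the genes tested) and lower for 2632 (22.3%). Without adjustment, 5956 genes had a p under 0.05. The treatment effect itself passed for 51.3% of genes in HCC827-Del (24.8% higher and 26.5% lower) and for 45.8% in HCC827-Del-TM (21.7% higher and 24.1% lower). Most differences were small: 936 genes differed by a log2 value of at least 1, 350 of them higher and 586 lower in HCC827-Del-TM. When arrays were scaled to a common median and not quantile-normalized, 4086 genes passed and 32.2% of them were higher in HCC827-Del-TM, in place of 47.6%, while the median difference over all genes moved from 0.01 to -0.10. With only the genes detected on all arrays tested, 2232 of 9203 were higher and 2016 lower.

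Genes past the threshold were sorted into classes. A gene was called opposite when both lines passed the test for treatment with opposite signs. It was called restricted to a line when that line passed with a log2 change of at least 1 and the 95% interval of the change in the other line lay within 0.5 of 0. Opposite effects were seen for 749 genes (6.34% of those tested), of which 378 rose in HCC827-Del-TM and fell in HCC827-Del, and 371 did the reverse. Effects restricted to HCC827-Del covered 290 genes (2.46%), 208 rising and 82 falling. Effects restricted to HCC827-Del-TM covered 193 genes (1.63%), 84 rising and 109 falling. Of the genes called restricted, 20 also passed in the other line with a small change of opposite sign and 57 with a small change of the same sign. In both lines alike in direction but unequal in size were 470 genes with the larger change in HCC827-Del and 304 with the larger change in HCC827-Del-TM, and the other 3018 fitted none of these classes.

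**Figure D1:**
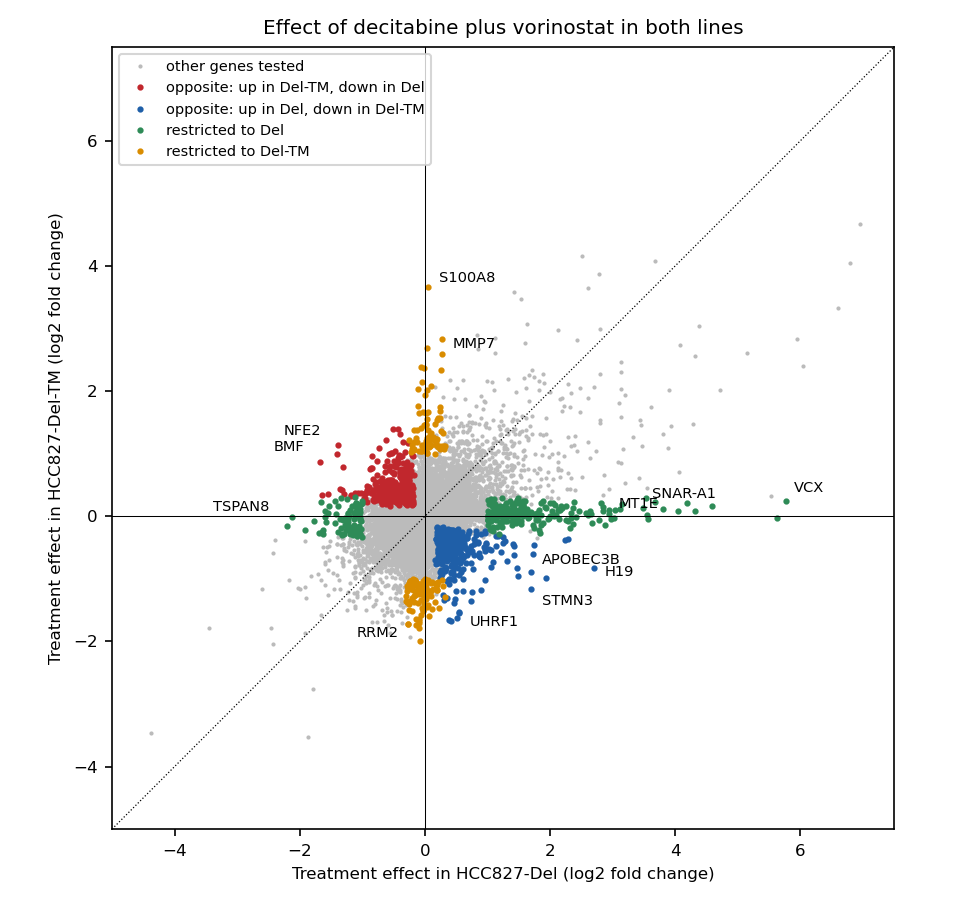
Log2 fold change with treatment in HCC827-Del (horizontal axis) and in HCC827-Del-TM (vertical axis), 1 point per gene for 11808 genes, coloured by class. Opposite genes lie at the upper left and lower right, mostly near the centre (37 and 59 of them moved by at least 0.5 in both lines), while genes restricted to a line lie along that line's axis.

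Opposite effects were mostly modest, with median log2 changes of -0.39 in HCC827-Del and 0.38 in HCC827-Del-TM where HCC827-Del-TM rose, and of 0.39 and -0.44 where HCC827-Del rose. A change of at least 0.5 in both lines was reached by 96 genes, and 1 gene in each direction reached 1 in both. Median scaling left 460 opposite genes, 393 of them among the 749. At an adjusted p under 0.01, the class held 369 genes. The 8 genes per direction named below were those whose smaller change was largest, and their classes were the same under every alternative run.

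STMN3, a stathmin family gene whose protein destabilises microtubules, had the lowest difference of drug effects among the opposite genes detected on all arrays. Its log2 intensity was 8.43, 8.25 and 8.66 in control HCC827-Del and 10.19, 10.14 and 10.09 after treatment. In HCC827-Del-TM it was 7.59, 7.72 and 7.90 in the control and 6.56, 6.61 and 6.55 after treatment. All treated arrays lay outside the range of their controls, above it in HCC827-Del and below it in HCC827-Del-TM. The log2 change was 1.70 in HCC827-Del and -1.16 in HCC827-Del-TM, a difference of -2.86 (SE 0.144, adjusted p = 7.16e-09, n = 3 per group). Its promoter is shown because the gene leads this class and lies in CpG-rich sequence, as most genes tested do. CpG is the substrate of the methyltransferases that decitabine traps, but a part of methylation in the change of STMN3 was not tested. The 250 bases upstream of its start (RefSeq, GRCh38.p14, minus strand, chr20:63652767-63653016) hold 28 CpG dinucleotides, in capitals. The 300-base window around the start has an observed over expected CpG ratio of 0.78, against a median of 0.835 over all genes tested.
STMN3: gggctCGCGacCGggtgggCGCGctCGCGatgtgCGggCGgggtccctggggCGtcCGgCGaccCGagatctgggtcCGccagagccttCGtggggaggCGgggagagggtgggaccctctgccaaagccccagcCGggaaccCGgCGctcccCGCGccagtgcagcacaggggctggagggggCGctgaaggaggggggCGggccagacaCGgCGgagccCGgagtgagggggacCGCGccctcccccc

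APOBEC3B, a cytidine deaminase gene that can mutate DNA, behaved alike. Its log2 intensity went from 7.64, 7.80 and 8.04 to 9.58, 9.40 and 9.59 in HCC827-Del. In HCC827-Del-TM, where it started lower, it went from 6.48, 6.59 and 6.41 to 5.51, 5.53 and 5.75. The treated lines thus stood 3.93 apart on the log2 scale (SE 0.105), against 1.33 in the controls, with HCC827-Del higher in both. PSMC3IP, which encodes a partner of the meiotic recombinase, was at 6.68 on each control array of HCC827-Del and at 8.10, 8.21 and 8.21 after treatment. In HCC827-Del-TM it was at 7.17, 6.94 and 6.77 in the control and 5.95, 6.15 and 5.91 after treatment. The differences of drug effects were -2.60 for APOBEC3B (SE 0.149, adjusted p = 2.1e-08) and -2.44 for PSMC3IP (SE 0.139, adjusted p = 1.94e-08). The other 2 kept probes of PSMC3IP gave -1.93 and -1.75, on the same side.

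The remaining 5 genes of this direction were the alpha tubulin gene TUBA3D (1.05 in HCC827-Del and -0.81 in HCC827-Del-TM), the ribosomal protein gene RPL36A (0.77 and -0.85), the anaphase helicase gene ERCC6L (0.75 and -1.21), the spermidine synthase gene SRM (0.74 and -1.35) and the lysosomal membrane gene LAMP3 (1.32 and -0.72). Each passed in both lines, and their differences ran from -1.61 to -2.09. Another kept probe of TUBA3D rose by 2.78 in HCC827-Del with -0.05 in HCC827-Del-TM (adjusted p = 0.666), and another of LAMP3 gave 0.52 and -0.15 (adjusted p = 0.167), so their falls in HCC827-Del-TM rest on 1 probe each. EFHD1, a calcium-binding protein gene of mitochondria, belonged to the same class with a large rise in HCC827-Del (2.28) and a small fall in HCC827-Del-TM (-0.37, adjusted p = 0.00346), a difference of -2.65 (SE 0.124). The imprinted non-coding RNA H19 passed the test for the difference as well (adjusted p = 1.88e-09). It was at 5.25, 5.02 and 5.31 in control HCC827-Del and at 7.99, 7.87 and 7.86 after treatment. H19 was at 5.45, 5.04 and 5.10 in control HCC827-Del-TM, where 2 of 3 arrays detected it, and no array detected it after treatment. The treated lines differed at least 7.28-fold, and its fitted fall in HCC827-Del-TM is against a level below background.

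In the other direction, NFE2, a transcription factor gene known from the erythroid and platelet lineages, fell in HCC827-Del and rose in HCC827-Del-TM. Its log2 intensity was 6.84, 6.70 and 6.69 in control HCC827-Del and 5.39, 5.31 and 5.35 after treatment. In HCC827-Del-TM the values were 6.53, 6.71 and 6.44 before and 7.71, 7.71 and 7.68 after treatment. The control arrays of both lines overlapped in range (adjusted p = 0.0877 for the lines' difference), whereas the treated lines stood 2.35 apart (SE 0.0797). The difference of drug effects was 2.53 (SE 0.113, adjusted p = 2.28e-09).

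BMF encodes a BH3-only protein that promotes apoptosis by binding BCL2 family members. It went from 7.58, 7.35 and 7.58 to 5.99, 5.71 and 5.78 in HCC827-Del, and from 8.63, 8.70 and 8.75 to 9.68, 9.59 and 9.43 in HCC827-Del-TM. HCC827-Del-TM was higher by 1.19 in the controls and by 3.74 after treatment, so the treatment widened a difference that was already there. The difference of drug effects was 2.55 (SE 0.138, adjusted p = 1.29e-08), and its other 2 kept probes gave 2.35 and 0.99. The 250 bases upstream of the BMF start (RefSeq, GRCh38.p14, minus strand, chr15:40108880-40109129) are shown as the CpG-rich counterpart of STMN3 among genes that moved the other way, with 26 CpG in capitals and an observed over expected ratio of 0.978.
BMF: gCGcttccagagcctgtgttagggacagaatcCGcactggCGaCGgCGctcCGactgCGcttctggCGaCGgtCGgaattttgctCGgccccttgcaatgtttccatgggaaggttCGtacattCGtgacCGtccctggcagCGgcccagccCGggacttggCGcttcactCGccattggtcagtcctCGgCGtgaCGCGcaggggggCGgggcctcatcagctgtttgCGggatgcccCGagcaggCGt

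PPP1R14D, a phosphatase 1 inhibitor gene, fell from 8.43, 8.55 and 8.43 to 7.06, 6.98 and 7.14 in HCC827-Del and rose from 8.23, 7.97 and 8.19 to 9.28, 8.99 and 9.10 in HCC827-Del-TM. Its difference of drug effects was 2.40 (SE 0.132, adjusted p = 1.42e-08). The zinc finger gene ZSCAN31 (-0.85 and 0.97) and the NAD synthesis gene NMNAT2 (-0.87 and 0.78) followed, although the fall of ZSCAN31 in HCC827-Del was not past the threshold on its other probe (-0.42, adjusted p = 0.0795). Probes for SNORD3A, SNORD3C and SNORD3D, copies of the U3 small nucleolar RNA that processes ribosomal RNA, moved by -0.76 to -0.87 in HCC827-Del and 0.75 to 0.88 in HCC827-Del-TM. These copies are nearly identical in sequence, so the 3 probes may read the same transcripts.

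**Figure D2:**
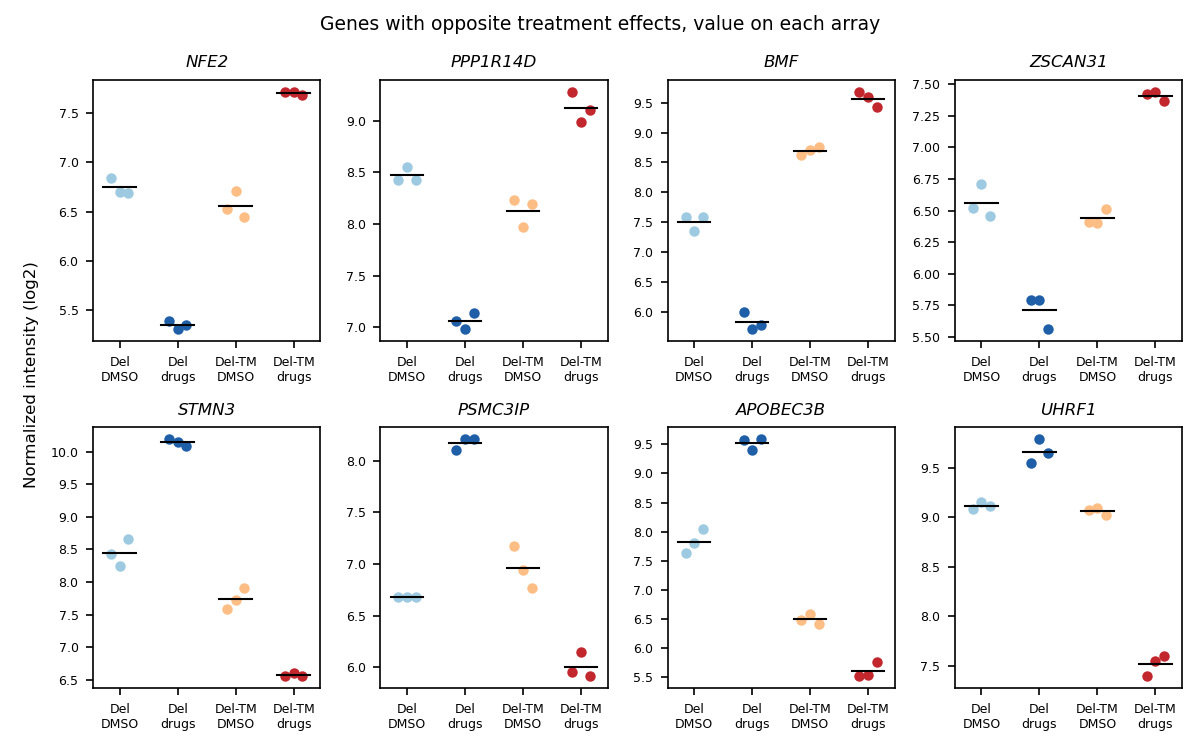
Normalized log2 intensity of 8 genes with opposite treatment effects on each of the 12 arrays, with 3 points and a line at the mean per group, DMSO and drugs in each line. NFE2, PPP1R14D, BMF and ZSCAN31 fell in HCC827-Del and rose in HCC827-Del-TM, and STMN3, PSMC3IP, APOBEC3B and UHRF1 did the reverse. The vertical scale differs between panels.

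Over all genes tested, those restricted to HCC827-Del mostly rose, but most of the rising genes were not detected in HCC827-Del-TM. Of the 208 rising genes, 147 were detected on no array of HCC827-Del-TM and 42 on all 6. On all 12 arrays of the study, 37 of the rising and 74 of the 82 falling genes were detected, so among those genes more fell than rose. A gene detected in treated HCC827-Del alone had to differ to pass the detection filter, so these counts describe the class and are not evidence for it. The count also rests on single arrays for that reason: without replicate 1, 2 or 3 of treated HCC827-Del, the class held 172, 157 and 162 genes of both directions in place of 290. Without background correction it held 120, of which 79 were among the 290, and with a required change of 1.5 it held 115. The higher number of probes detected in treated HCC827-Del moved with these genes, and its part in them was not tested.

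Among genes detected on all arrays, SNAR-A1, a small non-coding RNA, rose most in HCC827-Del alone. Its log2 intensity was 9.44, 9.31 and 9.68 in the control and 12.80, 13.08 and 13.03 after treatment, against 9.55, 9.46 and 9.19 and then 9.42, 9.60 and 9.55 in HCC827-Del-TM. The metallothionein gene MT1E, whose protein binds zinc and copper, went from 6.68, 6.47 and 6.75 to 9.65, 9.47 and 9.70 in HCC827-Del. In HCC827-Del-TM it was at 6.03, 6.02 and 6.40 in the control and 6.25, 6.20 and 5.87 after treatment, ranges that overlapped. For MT1E the change was 2.97 in HCC827-Del and -0.04 in HCC827-Del-TM (95% interval -0.316 to 0.232), a difference of -3.02 (SE 0.18, adjusted p = 3.04e-08). Of 7 metallothionein genes detected on all arrays, 2 passed with a lower drug effect in HCC827-Del-TM and 0 with a higher one, against 22.3% and 20.3% over all genes, and their median difference was -0.10. MT1M and MT3 were each detected in treated HCC827-Del alone, and their signals there were at least 1.64-fold and 1.56-fold above the detection limit of treated HCC827-Del-TM.

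CITED4, a gene for a CBP/p300-binding coactivator, stood at 6.43, 6.51 and 6.49 in control and 9.02, 8.80 and 8.89 in treated HCC827-Del, and at 6.65, 6.74, 6.47, 6.53, 6.62 and 6.67 on the 6 arrays of HCC827-Del-TM. Its difference of drug effects was -2.44 (SE 0.121, adjusted p = 6.06e-09). RASD1, a Ras-related gene inducible by glucocorticoids, started 1.49 lower in HCC827-Del than in HCC827-Del-TM and ended 1.00 higher. GMFG, an actin regulator gene of myeloid and endothelial cells, rose by 2.19 in HCC827-Del against 0.13 in HCC827-Del-TM (adjusted p = 0.41). PPP1R1B, a phosphatase inhibitor gene of dopamine-responsive neurons, rose by 1.88 and 0.24, but its other kept probe did not pass for the difference (-0.39, adjusted p = 0.119).

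Below detection in HCC827-Del-TM, the largest bounds belonged to X-linked germline genes. VCX and VCX3B, expressed in testis, were at a mean of 10.09 in treated HCC827-Del (SD 0.111 and 0.0993) and on no other array above background. Their signals were at least 33.2-fold and 33.0-fold higher there than the detection limit of treated HCC827-Del-TM. The same held for the testis histone genes H2AB1 (at least 14.2-fold) and H2AB2 (at least 8.86-fold), the transketolase-like gene TKTL1 (at least 13-fold) and the cancer-testis gene CT45A3 (at least 11.4-fold). VCX3A, another VCX gene, was detected on all 3 treated arrays of HCC827-Del-TM as well. It rose at least 1.11-fold there (adjusted p = 0.032) and at least 34.2-fold in HCC827-Del. On its other kept probe the rise in HCC827-Del-TM was not past the threshold (0.23, adjusted p = 0.195). The copies within the VCX, H2AB and CT45 families are nearly identical, and the member behind each signal is uncertain. Of 40 cancer-testis antigens listed, 39 had a probe, 28 passed the filter, 0 were detected on all arrays and 20 were detected in 1 group alone. Treatment raised 27 of the 28 past the threshold in HCC827-Del and 8 in HCC827-Del-TM, against 24.8% and 21.7% over all genes. The filter admits such genes through the group where they are high, so these counts are no evidence. Of the 40 germline and meiosis genes, 20 were tested and 4 were detected on all arrays. Of these 4, 2 had a higher drug effect in HCC827-Del-TM and 0 a lower one, against 20.3% and 22.3% over all genes. Over the 20 tested, 2 were higher and 14 lower, but 12 were detected in 1 group alone, so that count is no evidence. MAEL, a piRNA pathway gene, was detected in treated HCC827-Del alone, at least 2.47-fold above the limit in treated HCC827-Del-TM. GTSF1, of the same pathway, passed in both lines and rose by at least 12.0-fold in HCC827-Del and at least 1.70-fold in HCC827-Del-TM. Markers of other tissues were among the restricted genes too. The endothelial gene VWF and the muscle gene DES were detected in treated HCC827-Del alone (at least 2.61-fold and 1.65-fold above the limit in treated HCC827-Del-TM). The endothelial marker PECAM1 had the same pattern of detection as VWF, and CDH5 was detected on no array.

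Falls restricted to HCC827-Del covered 82 genes, 76 of them detected on all 6 arrays of HCC827-Del-TM. The tetraspanin gene TSPAN8 was at 9.97, 9.88 and 9.96 in control HCC827-Del and at 7.81, 7.82 and 7.83 after treatment. In HCC827-Del-TM it was at 9.40, 9.30 and 9.49 before and 9.37, 9.35 and 9.44 after, within the same range. The difference of drug effects was 2.11 (SE 0.098, adjusted p = 3.4e-09). PEG10, an imprinted gene derived from a retrotransposon, fell by 2.20 on the log2 scale from a high control level (9.19, 8.66 and 9.05), while in HCC827-Del-TM it was low throughout (5.93 to 6.43 over 6 arrays). PEG10 stayed higher in treated HCC827-Del (6.76) than in treated HCC827-Del-TM (6.15, adjusted p = 0.00106 for the treated lines). GCNT1, a mucin glycan branching enzyme gene, reached in treated HCC827-Del (6.84) the level of treated HCC827-Del-TM (6.81, adjusted p = 0.87 for the treated lines). ALDH3B1, an aldehyde dehydrogenase gene, PLEKHS1 and the immune checkpoint ligand gene VTCN1 fell by 1.78, 1.70 and 1.66. PLEKHS1 lay just inside the class, with an interval in HCC827-Del-TM down to -0.498, as did DUSP1, whose rise in HCC827-Del was 1.01. PEG10, GCNT1 and PLEKHS1 each left the class under some alternatives. Just outside lay TRAF1, with a rise of 0.96 in HCC827-Del, and LUM, with an interval in HCC827-Del-TM up to 0.589.

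Genes of lung identity lay among the falls in HCC827-Del. NKX2-1 encodes the lineage transcription factor of the distal lung. It stood at 9.91, 9.72 and 9.87 in control HCC827-Del and at 8.43, 8.28 and 8.51 after treatment, but at 9.26 on each control array and at 9.24, 9.45 and 9.21 on the treated arrays of HCC827-Del-TM. The difference of drug effects was 1.46 (SE 0.123, adjusted p = 8.52e-07), and HCC827-Del went from 0.57 above HCC827-Del-TM to 0.89 below it. The simple epithelial keratin genes KRT7 and KRT19 fell in HCC827-Del (-1.30 and -0.39) and rose in HCC827-Del-TM (0.36 and 0.48). Of 22 lung and airway secretory genes tested, 11 passed with a higher and 4 with a lower drug effect in HCC827-Del-TM, against 20.3% and 22.3% over all genes, around a median difference of 0.45 against 0.01. Their median change was -1.15 in HCC827-Del and -0.46 in HCC827-Del-TM. With no detection filter 35 genes of this list were tested, and the same counts of 11 and 4 stood beside a median difference of 0.01 and a median change of -0.07 in each line. LAMP3 and SFTPB, both alveolar type II genes, were 2 of the 4 lower ones. SFTPB was lost in both lines, at least 3.14-fold in HCC827-Del and at least 8.17-fold in HCC827-Del-TM. With no treated array detecting SFTPB, its fitted difference follows the control levels (6.44 in HCC827-Del and 8.07 in HCC827-Del-TM). Its 2 losses are bounds and cannot be ranked.

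Rises restricted to HCC827-Del-TM covered 84 genes, of which 47 were detected on all 6 arrays of HCC827-Del and 23 on none. Falls covered 109 genes, 104 of them detected on all 6. Without background correction the class held 84 genes of both directions, 51 of them among the 193. With a required change of 1.5 it held 36, and with an interval within 0.4 it held 123. MMP7 encodes matrilysin, a secreted protease of epithelia. It was at 5.20, 5.25 and 5.36 in control HCC827-Del-TM and at 7.86, 7.81 and 7.91 after treatment, against 5.73, 5.63 and 5.51 and then 5.69, 6.05 and 5.96 in HCC827-Del. The difference was 2.31 (SE 0.135, adjusted p = 2.47e-08). The interval of its small rise in HCC827-Del (0.28) reached 0.485. MMP7 left the class under 7 alternatives, and with an interval within 0.4 as well, while the difference stayed past the threshold. Its promoter is shown as a CpG-poor one, the more frequent kind among genes rising in HCC827-Del-TM alone: 3 CpG, in capitals, in the 250 bases upstream of its start (RefSeq, GRCh38.p14, minus strand, chr11:102530748-102530997), at an observed over expected ratio of 0.424.
MMP7: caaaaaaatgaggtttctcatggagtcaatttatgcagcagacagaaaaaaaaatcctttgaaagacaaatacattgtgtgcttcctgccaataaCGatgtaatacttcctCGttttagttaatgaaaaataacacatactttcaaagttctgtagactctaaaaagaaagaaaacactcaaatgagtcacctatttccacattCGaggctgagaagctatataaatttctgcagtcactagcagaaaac

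LEMD1, known as a cancer-testis gene, went from 7.41, 7.20 and 7.43 to 9.86, 9.67 and 9.66 in HCC827-Del-TM and stayed between 8.02 and 8.35 on all arrays of HCC827-Del. DEFB4A, the gene of beta-defensin 2, rose by 2.03 from a control level already 4.03 above that of HCC827-Del, where its change was -0.12 (adjusted p = 0.342). The complement protease gene C1S rose by 1.57, with an interval in HCC827-Del up to 0.428, and some alternatives took it out of the class. The calprotectin subunit gene S100A8 was detected on no array of HCC827-Del. In HCC827-Del-TM it went from 8.66, 8.66 and 8.88 to 12.40, 12.44 and 12.37, so that the treated lines differed at least 196-fold. Other rises in HCC827-Del-TM without detection in HCC827-Del were those of C6orf58 (at least 5.26-fold over its control), the stromelysin gene MMP10 (at least 3.17-fold), the acute-phase gene SAA2 (at least 2.98-fold), ENKUR (at least 2.66-fold) and CLCA2 (at least 2.60-fold). LTB, a cytokine gene, was lost there, at least 1.92-fold.

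**Figure D3:**
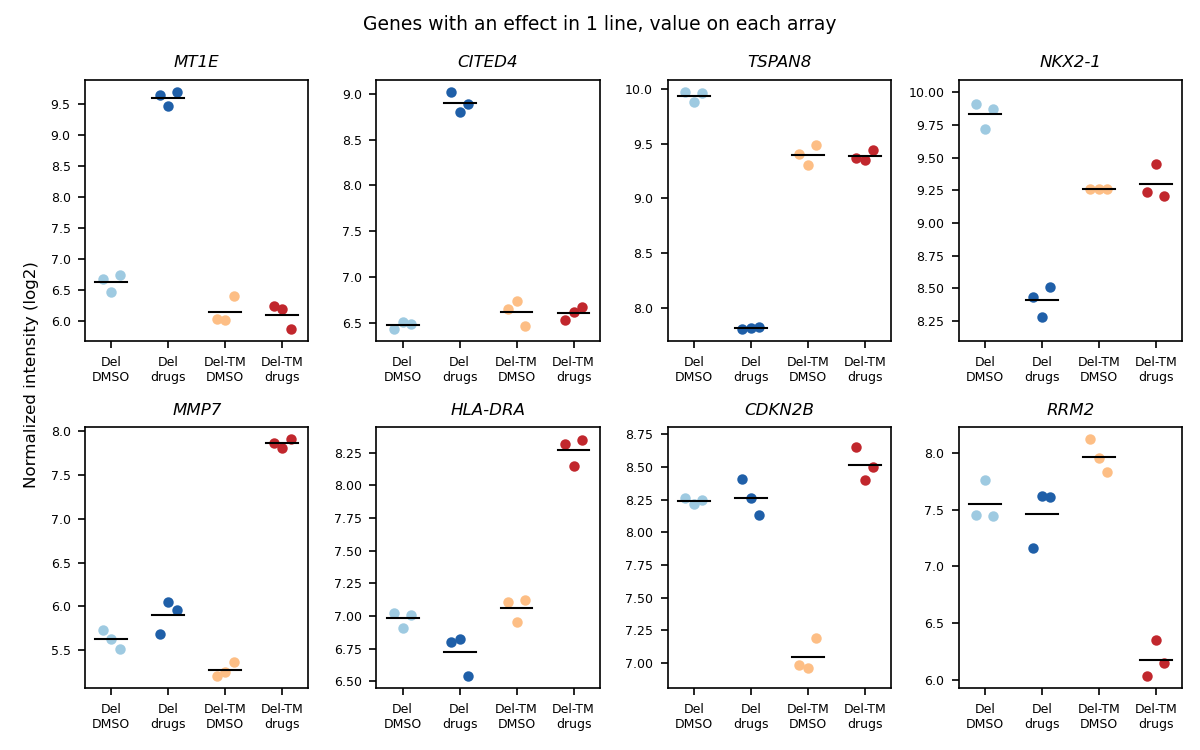
Normalized log2 intensity of 8 genes with an effect restricted to 1 line, on each of the 12 arrays, with 3 points and a line at the mean per group. MT1E and CITED4 rose and TSPAN8 and NKX2-1 fell in HCC827-Del, and MMP7, HLA-DRA and CDKN2B rose and RRM2 fell in HCC827-Del-TM, while in the other line the groups lay close to each other. Each panel shows the gene's brightest kept probe. For HLA-DRA the other kept probe rose in both lines, by 0.94 in HCC827-Del and 2.64 in HCC827-Del-TM. The vertical scale differs between panels.

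Genes of mitosis and DNA replication were frequent among the falls restricted to HCC827-Del-TM. Of 39 mitotic genes tested, all detected on every array, 38 passed with a lower drug effect in HCC827-Del-TM and 0 with a higher one, against 22.3% lower over all genes. The list's median change was -0.21 in HCC827-Del and -1.16 in HCC827-Del-TM. In HCC827-Del 16 members fell and 2 rose, against 26.5% and 24.8% over all genes. In HCC827-Del-TM all 39 fell, against 24.1%, and 21 met the rule for restriction to HCC827-Del-TM, against 1.63%. Of 38 replication genes tested, 32 passed lower and 1 higher, against 22.3% and 20.3% over all genes, with median changes of -0.07 and -1.04. Of these genes, 11 were restricted to HCC827-Del-TM, against the same 1.63%. These lists were written with results of these data known, so their counts describe the lines and are not independent evidence.

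RRM2 is the small subunit of ribonucleotide reductase, which supplies deoxynucleotides. It was at 7.45, 7.76 and 7.44 in control and 7.16, 7.62 and 7.61 in treated HCC827-Del, ranges that overlapped. In HCC827-Del-TM it went from 8.12, 7.95 and 7.83 to 6.03, 6.35 and 6.15. The change was -0.09 (adjusted p = 0.613) and -1.79, and the difference -1.70 (SE 0.193, adjusted p = 1.24e-05). GINS2, a subunit of the replicative helicase, fell from 9.29, 9.28 and 9.48 to 7.61, 7.75 and 7.65 in HCC827-Del-TM and lay between 9.20 and 9.42 on all arrays of HCC827-Del. Thymidylate synthase (TYMS), the cohesion factor gene CDCA5, the checkpoint ATPase gene TRIP13 and the mitotic transcription factor gene FOXM1 fell by 1.72, 1.72, 1.71 and 1.51 in HCC827-Del-TM, against -0.28, -0.27, -0.09 and -0.04 in HCC827-Del. The small falls of TYMS and CDCA5 in HCC827-Del passed as well (adjusted p = 0.0179 and 0.0252). Both genes left the restricted class under some alternatives. EMP3, a membrane protein gene outside these lists, fell by 1.73. The replicative helicase subunit gene CDC45 went in opposite directions, 0.42 in HCC827-Del (adjusted p = 0.000796) and -1.68 in HCC827-Del-TM.

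Promoters of replication and mitotic genes often carry CCAAT boxes with E2F sites or with the CHR element through which cell cycle complexes repress them in resting cells, and 3 examples are shown with these letters. In the RRM2 promoter (RefSeq, GRCh38.p14, plus strand, chr2:10122489-10122738, the 250 bases upstream of the start) the capitals mark 3 CCAAT boxes. In the GINS2 promoter (minus strand, chr16:85688955-85689204) they mark the E2F site core GCGGGAA. In the promoter of ERCC6L, the opposite gene described above (minus strand, chrX:72239028-72239277), they mark the CHR letters TTTGAA.
RRM2: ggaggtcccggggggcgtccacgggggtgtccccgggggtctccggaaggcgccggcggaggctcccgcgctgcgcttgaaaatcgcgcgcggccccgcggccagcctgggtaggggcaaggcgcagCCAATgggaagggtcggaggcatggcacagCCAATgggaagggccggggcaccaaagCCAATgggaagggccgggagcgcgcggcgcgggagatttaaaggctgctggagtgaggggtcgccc
GINS2: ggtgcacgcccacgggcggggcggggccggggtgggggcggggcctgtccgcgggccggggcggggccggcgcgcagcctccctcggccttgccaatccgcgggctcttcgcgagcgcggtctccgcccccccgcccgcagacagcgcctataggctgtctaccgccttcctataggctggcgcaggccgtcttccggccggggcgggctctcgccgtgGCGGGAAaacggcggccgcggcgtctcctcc
ERCC6L: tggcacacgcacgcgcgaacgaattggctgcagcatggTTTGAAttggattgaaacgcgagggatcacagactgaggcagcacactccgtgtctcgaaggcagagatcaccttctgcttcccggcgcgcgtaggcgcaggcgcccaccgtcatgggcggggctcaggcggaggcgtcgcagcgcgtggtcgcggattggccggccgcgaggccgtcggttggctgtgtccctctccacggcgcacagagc

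RefSeq promoter windows of 300 bases (250 before and 50 after the start) were matched for 9477 of the 11808 genes by symbol. CCAAT on either strand was found in 62.4% of the 85 promoters of genes falling in HCC827-Del-TM alone and in 47.4% of those of opposite genes rising in HCC827-Del, against 37.4% over all genes tested and 35.7% over all 27305 promoters of the table. GCGGGAA was in 24.7% of promoters of genes falling in HCC827-Del-TM alone, against 10.2% and 6.56%, and TTTGAA in 31.8%, against 10.1% and 15.4%. None of the 3 motifs contains another, though adjoining matches can share an end letter. Among the mitotic genes, TTTGAA was in 21 of 31 promoters and GCGGGAA in 4. Among the replication genes, GCGGGAA was in 17 of 33 and TTTGAA in 1. A match of letters is not a site of binding. CpG content differed between the classes as well. An observed over expected ratio above 0.6 was reached by 80.5% of promoters over all genes tested and by 48.9% over all 27305 promoters of the table. The share was 91.8% for genes falling in HCC827-Del-TM alone and 90.2% for opposite genes rising in HCC827-Del. It was 40.6% for rises in HCC827-Del-TM alone and 51.9% for rises in HCC827-Del alone, both nearer to the share of the whole table. Among rises in HCC827-Del alone it was 43.4% for genes not detected in HCC827-Del-TM and 70.8% for the others. No methylation was measured here.

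**Figure D4:**
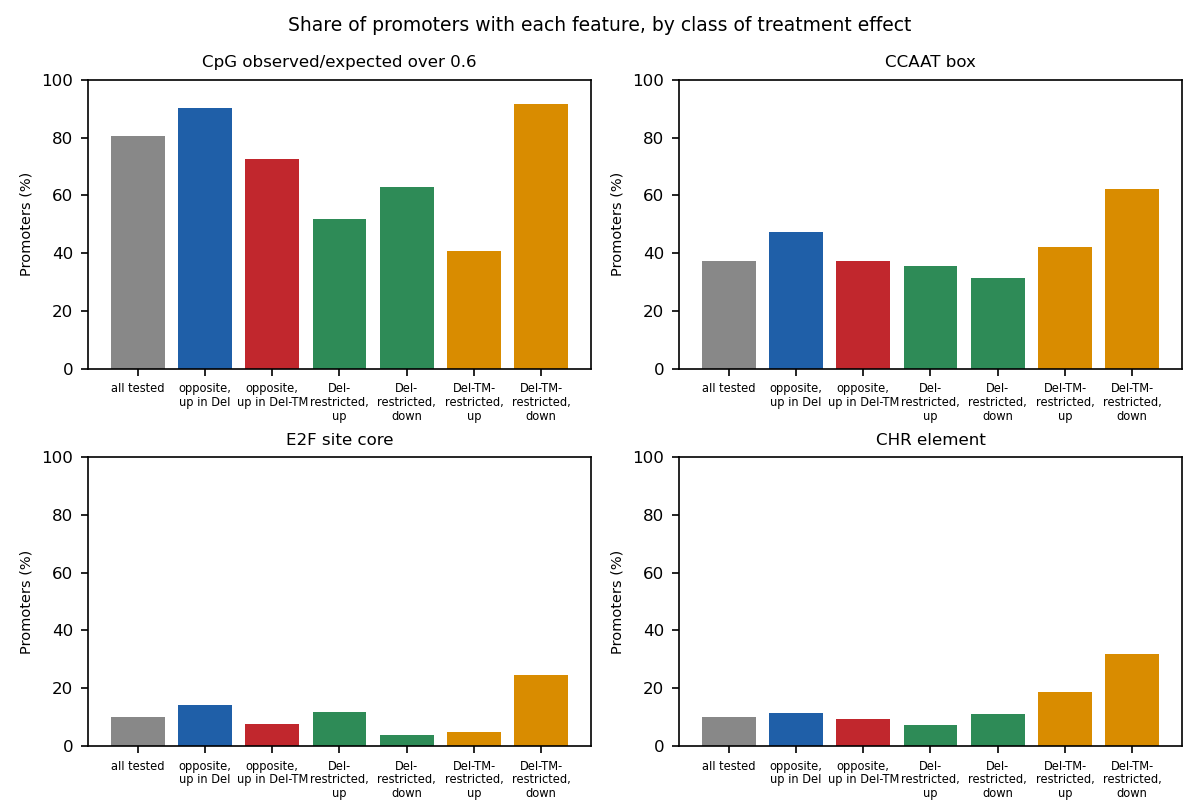
Percent of promoters (300-base windows) with a CpG observed over expected ratio above 0.6, a CCAAT box, an E2F site core or a CHR element on either strand, 1 bar per class of treatment effect and 1 for all genes tested. Genes falling in HCC827-Del-TM alone have the highest bar in all 4 panels (91.8%, 62.4%, 24.7% and 31.8%), and genes rising in HCC827-Del-TM alone the lowest for CpG (40.6%).

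Around the cell cycle, regulators differed too. CDKN1A, the gene of the inhibitor p21, rose in both lines, by 2.79 in HCC827-Del and 2.27 in HCC827-Del-TM, a difference of -0.52 (SE 0.112, adjusted p = 0.00191). CDKN2B, the gene of the inhibitor p15, stood at 8.26, 8.22 and 8.25 in control and 8.41, 8.26 and 8.13 in treated HCC827-Del. In HCC827-Del-TM it went from 6.98, 6.96 and 7.19 to 8.65, 8.40 and 8.50, ending slightly above the other line (0.25, adjusted p = 0.031 for the treated lines). The difference of drug effects for CDKN2B was 1.45 (SE 0.131, adjusted p = 1.68e-06). CDKN2D, of the same inhibitor family, rose by 1.19 in HCC827-Del and fell by 0.28 in HCC827-Del-TM. The proto-oncogene MYB fell in both lines, by 0.56 and 1.87. Tubulins and stathmins, the subunits and regulators of microtubules, gave 14 of 17 members with a lower drug effect in HCC827-Del-TM and 0 with a higher one, against 22.3% and 20.3% over all genes. Their median changes were 0.33 in HCC827-Del and -0.70 in HCC827-Del-TM, and 7 of them were opposite, against 6.34% over all genes. TUBB2B rose by 4.29 in HCC827-Del and, from a control level below detection, at least 2.26-fold in HCC827-Del-TM.

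Enzymes of DNA methylation and the drugs' own targets were compared next. UHRF1 recruits the maintenance methyltransferase DNMT1 to newly replicated DNA. Its log2 intensity was 9.08, 9.15 and 9.11 in control and 9.55, 9.79 and 9.65 in treated HCC827-Del. In HCC827-Del-TM it fell from 9.07, 9.09 and 9.02, the same level as the other control, to 7.39, 7.55 and 7.60. The change was 0.55 and -1.55, and the difference -2.10 (SE 0.113, adjusted p = 1.26e-08). DNMT1 gave -0.06 (adjusted p = 0.519) and -0.88, a difference of -0.82 (SE 0.106, adjusted p = 3.73e-05). The de novo enzyme gene DNMT3B rose by 0.73 in HCC827-Del against 0.08 in HCC827-Del-TM (difference -0.64, adjusted p = 0.000295), but 1 of its other 2 probes did not pass for the difference. IDH1, which makes the cofactor of the TET demethylases, fell by 0.21 and rose by 0.97. On its other kept probe, the fall in HCC827-Del was not past the threshold (-0.21, adjusted p = 0.228). Of 17 genes of DNA methylation tested, 2 passed higher and 5 lower, against 20.3% and 22.3% over all genes. Of 15 histone deacetylase and sirtuin genes 3 passed higher and 0 lower, against the same 20.3% and 22.3%, so the higher count was near the share over all genes. HDAC7 (-0.69 and 0.37) and HDAC8 (-0.33 and 0.36) went in opposite directions in the 2 lines, while the difference for HDAC1 was 0.09 (adjusted p = 0.514). DCK, the kinase that activates decitabine, gave 0.13 (adjusted p = 0.248) and -0.65, and the ribonucleotide reductase gene RRM1 0.09 (adjusted p = 0.3) and -0.90. Of 19 genes of decitabine uptake and activation, 6 passed in each direction, against 20.3% higher and 22.3% lower over all genes, but 1 higher and 6 lower under median scaling.

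MHC class II molecules present peptides to helper T cells. Of 13 class II genes tested, 10 passed with a higher drug effect in HCC827-Del-TM and 1 with a lower one, against 20.3% higher over all genes, and their median change was 0.04 in HCC827-Del and 0.93 in HCC827-Del-TM. HLA-DRA was at 7.02, 6.91 and 7.01 in control and 6.80, 6.82 and 6.54 in treated HCC827-Del. It went from 7.11, 6.95 and 7.12 to 8.32, 8.15 and 8.35 in HCC827-Del-TM, a difference of drug effects of 1.47 (SE 0.129, adjusted p = 1.18e-06). The other kept probe of HLA-DRA rose in both lines, by 0.94 and 2.64, so its effect was not restricted to HCC827-Del-TM, though the difference was alike (1.71). HLA-DRB1 changed by 0.16 (adjusted p = 0.248) and 1.48, and CTSS, a protease of the class II pathway, by -1.17 and 0.32. HLA-DRB copies are closely similar, so the source of those signals is uncertain.

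Interferon-stimulated genes gave 28 higher and 3 lower of 46, against 20.3% and 22.3% over all genes, with median changes of -0.04 and 0.39. Under median scaling 19 were higher and 5 lower. EPSTI1 rose by 0.33 and 1.60. IFI44L and OAS2, an antiviral oligoadenylate synthetase gene, fell in HCC827-Del (-0.54 and -0.65) and rose in HCC827-Del-TM (0.58 and 0.53), although another probe of each did not pass for the difference. IFIT2 gave -0.21 (adjusted p = 0.137) and 0.97. Among members detected on all arrays, acute-phase and complement genes gave 7 higher and 2 lower of 11, and antimicrobial and S100 genes 4 higher and 3 lower of 11, against the same 20.3% and 22.3%. S100A7 rose by 2.69 in HCC827-Del-TM and was on no array of HCC827-Del, and S100A9 rose from undetected in HCC827-Del (at least 8.26-fold) while in HCC827-Del-TM it rose by 0.87 from 13.07. Among cytokine genes, IL6 rose by 1.85 in HCC827-Del against 0.21 in HCC827-Del-TM (adjusted p = 0.0764), reaching the level of HCC827-Del-TM, and TNF, detected on all 3 arrays of treated HCC827-Del and 1 of treated HCC827-Del-TM, rose at least 1.80-fold in HCC827-Del. The NF-kB feedback gene TNFAIP3 rose by 1.12 in HCC827-Del alone, while BCL3 and NFKBIZ, nuclear IkB family genes, fell in HCC827-Del (-0.65 and -0.76) and rose in HCC827-Del-TM (0.49 and 0.25). On the other kept probe of NFKBIZ, the rise in HCC827-Del-TM was not past the threshold (0.24, adjusted p = 0.145).

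Of 21 histone genes with polyadenylated transcripts, 11 rose and 3 fell in HCC827-Del-TM, where 21.7% and 24.1% of all genes did. In HCC827-Del 8 rose and 4 fell, where 24.8% and 26.5% of all genes did. The difference of drug effects passed higher for 12 and lower for 5, against 20.3% and 22.3% over all genes, and for 8 and 4 under median scaling. The median changes were 0.15 in HCC827-Del and 0.78 in HCC827-Del-TM. H4C14 went from 7.49, 7.23 and 7.23 to 9.03, 8.95 and 8.98 in HCC827-Del-TM and lay between 7.54 and 7.70 in HCC827-Del. H2AC6, H2AC18 and H4C15 rose by 1.66, 1.34 and 1.47, against 0.02, 0.10 and 0.01 in HCC827-Del. H2AX, whose transcript is also made in proliferating cells, fell by 0.96 in HCC827-Del-TM. Histone genes of a family are similar in sequence, so the member read by a probe is uncertain.

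Of 28 genes of the integrated stress response, 13 passed with a higher drug effect in HCC827-Del-TM and 7 with a lower one, against 20.3% and 22.3% over all genes. Opposite effects were seen for 5 of them, against 6.34% over all genes. Under median scaling 6 passed in each direction. DDIT4, a stress-induced inhibitor of mTOR signalling, went from 11.47, 11.44 and 11.31 to 9.81, 9.77 and 9.69 in HCC827-Del and from 12.44, 12.36 and 12.28 to 12.63, 12.79 and 12.70 in HCC827-Del-TM. Its difference of drug effects was 1.99 (SE 0.108, adjusted p = 1.33e-08). The stress protein gene NUPR1 fell by 1.35 and rose by 0.43, and the cysteine synthesis gene CTH fell by 0.22 and rose by 0.82. HSPA5, the chaperone of the endoplasmic reticulum, gave -0.01 (adjusted p = 0.929) and 0.88.

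EGFR itself was abundant in all groups, at means of 12.70 to 12.79. Its brightest probe gave a difference of 0.10 (adjusted p = 0.401), but its other 3 probes gave -0.44, -0.56 and -0.70, each past the threshold, so its direction is not settled. Among feedback inhibitors of the MAPK pathway downstream of the receptor, SPRY4 rose by 1.24 in HCC827-Del and fell by 0.33 in HCC827-Del-TM (difference -1.57, SE 0.116, adjusted p = 2.55e-07), while its other probe did not fall past the threshold in HCC827-Del-TM (-0.20, adjusted p = 0.318). DUSP5 rose by 1.15 and 0.43, and DUSP1 by 1.01 and 0.26. Of 34 MAPK feedback and early response genes, 4 passed higher and 15 lower, against 20.3% and 22.3%. The list's median difference was -0.16, and 0.02 without the detection filter. The receptor kinase gene AXL rose by 1.09 in HCC827-Del and fell at least 1.14-fold, to below detection, in HCC827-Del-TM, which left it at least 2.76-fold below treated HCC827-Del. On the other kept probe of AXL, the fall in HCC827-Del-TM was not past the threshold (-0.24, adjusted p = 0.181). FGFR4 gave 0.82 and -0.23, but its other probe rose in both lines (0.67 and 0.36) and did not pass for the difference (adjusted p = 0.166). The adaptor gene GAB2 fell in HCC827-Del (-0.51) and rose in HCC827-Del-TM (0.41).

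**Figure D5:**
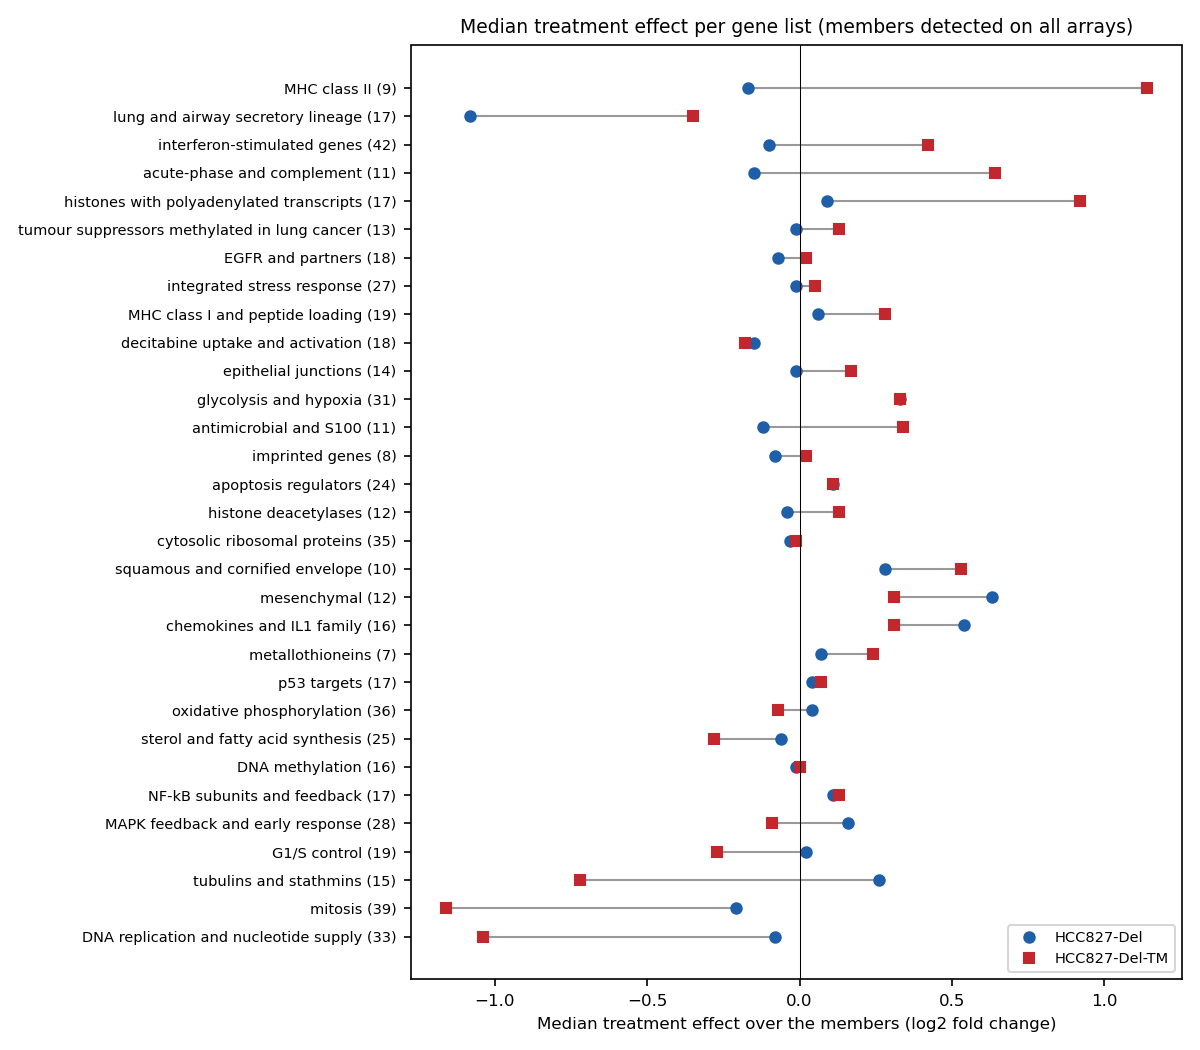
Median log2 fold change with treatment over the members detected on all 12 arrays of each gene list (number in parentheses), as a circle for HCC827-Del and a square for HCC827-Del-TM, for lists with at least 5 such members. Lists are ordered by the median difference of drug effects, from MHC class II, lung lineage and interferon-stimulated genes at the top to tubulins, mitosis and DNA replication at the bottom.

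The 5024 genes were also followed from the controls to the treated lines. For 4077 of them (81.2%) the lines stood further apart after treatment than before, and for 947 closer. The lines differed past the threshold both before and after treatment for 1670 genes, and for 461 of these the sign turned. For 2719 genes (54.1%) they differed only after treatment, and for 518 only in the controls. Over all 11808 genes, the SD of the log2 difference between the lines was 0.465 in the controls and 0.743 after treatment. These values come from the same arrays as the difference of drug effects and are given as a description. The lines' drug effects correlated across genes at r = 0.43 (0.388 over the 9197 genes detected on all arrays), where genes are not independent replicates, and of 3196 genes past the threshold in both lines 2427 moved in the same direction.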

How the data were processed

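RNA of 12 cultures was measured on Illumina bead arrays. The authors deposited a table of probe signals, with an intensity that was not normalized between arrays and a detection p-value per probe and array, per the file headers. The deposited value table held log2 values, which by comparison with the signals were quantile-normalized without background subtraction, and it served as an alternative. For both tables, the software is not given in the sources used. Of 47323 probes, 30113 had 1 gene symbol in the platform annotation, 8 several and 17202 none, and only probes with 1 symbol were used.

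Signals were background-corrected with nec in limma 3.58.1 (R 4.3.3, statmod 1.5.0) from the detection p-values with an offset of 16, quantile-normalized and put on the log2 scale. Probes with a detection p under 0.01 on at least 3 of 12 arrays were kept (19833), and the brightest kept probe stood for a gene. A model with 1 mean per group was fitted with lmFit and eBayes over 11808 genes, with Benjamini-Hochberg adjustment over all of them. Where a group was not above background on any array, folds are bounds against the lowest detected signals, written as "at least". A gene meeting the rule for restriction was not also counted as opposite. Replicates were labelled as biological, and the number of arrays limits the precision. Same-numbered arrays of different groups did not deviate together (r = -0.0316 to 0.052 over 18 pairs), so numbers were not used as pairs. On simulated data of 11808 genes, 100 were given a difference of drug effect at each fold. Of these, 93% were recovered at 2-fold and 55% at 1.5-fold. False calls made up 6.92% of the calls, above the threshold of 0.05. The data themselves had 5024 calls, so these shares need not hold for them.

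Genes named were the 8 per direction with the largest smaller change among opposite genes, the 6 per direction with the largest change among restricted genes, the 6 highest and 6 lowest differences (these 3 among genes detected on all arrays), the 6 per line with the largest bound where the other line was not detected, the 4 largest differences per gene list, and the drugs' targets with EGFR, UHRF1, CEBPA and CDKN1A. GINS2, RRM2 and other cell cycle genes fell under more than 1 of these. The comparison, its members and the gene lists were chosen with earlier results of these data known. Alternatives covered scaling, background, filter, probe choice, model, thresholds, a replicate block and leaving out each array.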

Additional observations from a re-analysis of the deposited data

Results flagged for a closer look

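The values here stand out because limma's test of the difference between the lines' drug effects passed, which covers 5024 genes, 749 of them with opposite effects. Among the genes named for opposite effects, the difference (HCC827-Del-TM minus HCC827-Del, log2) was -2.86 for STMN3, -2.44 for PSMC3IP, -2.60 for APOBEC3B, -1.86 for TUBA3D, -1.61 for RPL36A, -1.96 for ERCC6L, -2.09 for SRM and -2.03 for LAMP3. In the other direction it was 2.53 for NFE2, 2.40 for PPP1R14D, 2.55 for BMF, 1.82 for ZSCAN31, 1.64 for NMNAT2, and 1.63, 1.64 and 1.62 for the U3 copies SNORD3A, SNORD3D and SNORD3C. The highest and lowest differences among other genes detected on all arrays were 2.45 for LEMD1, 2.31 for MMP7 and 2.15 for DEFB4A, and -3.37 for SNAR-A1, -3.02 for MT1E, -2.65 for EFHD1 and -2.49 for RASD1. For each of these genes the difference kept its sign and stayed past the threshold under every alternative that was run. Groups of 3 arrays are too small to test single arrays as outliers.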

How the results depend on the processing

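Over the alternatives that keep all arrays, the number of genes with a difference of drug effects ran from 3549 (adjusted p under 0.01) to 5315, and it was 4996 with a replicate block, against 5024. Opposite genes numbered 460 with median scaling, 369 at an adjusted p under 0.01 and 96 with changes of at least 0.5 in both lines, against 749. Genes restricted to HCC827-Del numbered 120 without background correction, 120 with the authors' values, 182 with an offset of 50, 114 among genes detected on all arrays and 115 with a change of at least 1.5, against 290. Genes restricted to HCC827-Del-TM numbered 84, 87, 123 and 36 without background correction, with the authors' values, with an interval within 0.4 and with a change of at least 1.5, against 193. Of the main genes, 27.2% and 26.4% of these 2 classes remained without background correction. The higher thresholds lower the counts by construction, and for the others the cause was not tested.

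Leaving out 1 array at a time gave 4325 to 4786 genes with a difference, 640 to 687 opposite, 157 to 290 restricted to HCC827-Del and 167 to 206 restricted to HCC827-Del-TM. The lowest counts for HCC827-Del were 172, 157 and 162 without treated replicate 1, 2 or 3. The effect in HCC827-Del alone covered 5082 to 6065 genes, and that in HCC827-Del-TM 4802 to 5461. Of 165 named genes past the threshold, 163 kept their sign and stayed past it under every alternative run. The exceptions were ST14, which kept its sign with median scaling but no longer passed (0.40, adjusted p = 0.0787), and CCND2. The main probe of CCND2 was detected in treated HCC827-Del alone, so its fitted difference of -1.61 is against levels below background and is no exact fold. Over the arrays left out it ran from -1.73 to 0.22, with 0.16, -0.01 and 0.22 without replicate 1, 2 or 3 of treated HCC827-Del, where that probe no longer passes the filter and the gene's other probe, not past the threshold in the main setting, stands in. With the mean over kept probes, EGFR (-0.40) and RPL13 (-0.51) changed sign. Chip as a block was not run, because the columns used name no chip.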

Other observations

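Several gene groups not described above differed between the lines in single members. Counts here are of genes with a higher or lower drug effect in HCC827-Del-TM among members detected on all arrays, beside 20.3% higher and 22.3% lower over all genes. Those shares include genes not detected on all arrays. With only the genes detected on all arrays tested, 2232 of 9203 were higher and 2016 lower. Squamous and cornified envelope genes gave 4 higher and 1 lower of 10, with 20 further members tested that some arrays did not detect. The keratin gene KRT13 was detected in treated HCC827-Del alone (at least 4.39-fold above the limit in treated HCC827-Del-TM), SBSN rose at least 26.4-fold in HCC827-Del and at least 4.03-fold in HCC827-Del-TM, and the serpin gene SERPINB3 rose by 3.48 on the log2 scale in HCC827-Del-TM and at least 2.29-fold in HCC827-Del, where its other probe gave 0.00 (adjusted p = 0.989). Mesenchymal genes gave 3 in each direction of 12. The matricellular gene CCN2 rose by 1.84 in HCC827-Del and fell by 0.26 in HCC827-Del-TM, the collagen gene COL6A3 rose at least 6.40-fold in HCC827-Del, and SPARC was detected in treated HCC827-Del alone. Epithelial junction genes gave 5 higher and 1 lower of 14, while under median scaling 2 of the 17 tested were higher and 2 lower, among them the claudin gene CLDN7, which rose by 0.54 in HCC827-Del-TM against -0.11 in HCC827-Del (adjusted p = 0.325).

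Of 17 p53 targets, 5 were higher and 5 lower. TIGAR, a regulator of glycolysis, rose by 1.45 in HCC827-Del alone, while AEN (0.66 and -0.74) and PHLDA3 (-0.76 and 0.45) went in opposite directions to each other. Apoptosis regulators gave 5 higher and 6 lower of 24. The death ligand gene TNFSF10 rose at least 3.50-fold in HCC827-Del-TM and at least 1.26-fold in HCC827-Del, and HRK, a BH3-only gene, was detected in treated HCC827-Del alone. Sterol and fatty acid synthesis genes gave 1 higher and 8 lower of 25. INSIG1, the sterol sensor partner, fell by 1.5 in HCC827-Del-TM against -0.04 in HCC827-Del (adjusted p = 0.782), but its other probe gave -0.14 in HCC827-Del-TM (adjusted p = 0.204). Of 31 glycolysis and hypoxia genes 9 were higher and 7 lower. Hexokinase 2 (HK2) gave 0.57 and -0.43, but its other probe did not pass for the difference (-0.40, adjusted p = 0.102). FBP1, of gluconeogenesis, was lost in HCC827-Del-TM, at least 3.44-fold. Of 36 oxidative phosphorylation genes 2 were higher and 6 lower. Of 35 cytosolic ribosomal protein genes 1 was higher and 0 lower.

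MHC class I and peptide loading genes gave 7 higher and 3 lower of 19. The immunoproteasome gene PSMB10 fell by 1.14 in HCC827-Del and by 0.30 in HCC827-Del-TM. Chemokine and interleukin 1 family genes gave 5 higher and 4 lower of 16, and NF-kB subunits and feedback genes 3 and 7 of 17. CXCL6 rose by 1.41 in HCC827-Del-TM, at least 36.1-fold over treated HCC827-Del, where it was not detected. SERPINA3 rose in both lines, by 3.46 in HCC827-Del and 1.46 in HCC827-Del-TM. Tumour suppressors known to be methylated in lung cancer gave 7 higher and 2 lower of 13, while under median scaling 4 of the 20 tested were higher and 5 lower. The repair gene MGMT fell by 1.14 in HCC827-Del alone, and CEBPA rose by 0.38 there and fell at least 1.21-fold to below detection in HCC827-Del-TM. EGFR and its partners gave 7 higher and 1 lower of 18, G1/S control genes 3 and 12 of 19, and imprinted genes 3 and 1 of 8.

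Of the listed markers of other cell types, 4 were detected on all arrays, 1 of them higher and 2 lower. The T cell marker CD3D rose at least 5.80-fold in HCC827-Del and by 1.58 on the log2 scale in HCC827-Del-TM, where 1 control array detected it. Of the other leukocyte markers, CD14 was detected on all arrays and PTPRC on none.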
